A study of Caenorhabditis elegans with 2 samples.

Results

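The genes described here encode the CDC-48 segregase of Caenorhabditis elegans and its cofactors, 10 of the 19973 protein-coding genes of the 6 nuclear chromosomes. They were cdc-48.1 and cdc-48.2, which encode the ATPase, and ufd-1, npl-4.1, npl-4.2, ufd-2, ubxn-1, ubxn-2, ubxn-3 and ubxn-4, which encode proteins that bind it. The genes were chosen by their names, with the strong binding peak beside cdc-48.1 already known from the same peak lists, so the peak values below are a description and were put to no test. For each gene, every peak was taken whose summit, the base the peak caller gave as its highest point, lay between 2 kb upstream of the gene's start and 2 kb downstream of its end.

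Peaks came from ChIP-seq with an antibody against GFP in strain OP207. This strain carries wgIs207, a fosmid transgene in which ztf-1, a zinc finger gene, is fused to eGFP with TY1 and FLAG tags, next to an unc-119 marker. Whole L2 larvae of 28.5 hours, grown from L1 larvae starved after bleaching, were used in 2 biological replicates of 1 group, so no condition could be compared. The tagged copy came from the transgene, and whole animals mix all tissues, so the cells in which a site was bound cannot be told apart. The labels name a possible control experiment, which is not analysed here.

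The AAA ATPase known as p97 or VCP in mammals and CDC-48 in worms forms a hexameric ring that uses ATP to pull ubiquitin-marked proteins out of membranes, chromatin and complexes. The UFD-1 and NPL-4 pair brings it substrates with ubiquitin chains, UFD-2 lengthens such chains, and proteins with a UBX domain direct it to particular tasks. In C. elegans the ATPase is encoded by a pair of genes that can largely stand in for each other, and together they are needed for embryonic divisions and for the degradation of misfolded proteins of the endoplasmic reticulum.

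Of the 10 genes, 2 had a summit in the main list, cdc-48.1 and ubxn-3. That list came from comparing the replicates and held 238 entries with an irreproducible discovery rate (IDR, a measure of how poorly a peak's rank recurs between paired inputs) of 0.01 or less. Over all protein-coding genes 1.65% had a summit of this list in the same window. The list of peaks from pooled inputs held the same 2 genes, against 1.23% of all genes. The list of replicate 1, with 18 entries, held cdc-48.1 alone, against 0.165% of all genes, and the list of replicate 2, also with 18 entries, held none of the 10, against 0.165%. The choice of genes already rested on the cdc-48.1 peak, so nothing is read from these shares.

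Most of the data on these genes lie below that threshold. The ranked list behind the main list held 87133 entries with a median deposited q-value of 0.939, and 96.4% of all genes had a summit of it in their window, as did all 10 of these genes. An entry there is a candidate region and not a site. Where no other list is named below, summits are those of this replicate-compared ranked list. The windows of the 10 genes held 65 of these entries, with 29 summits inside the genes, 23 downstream of their ends and 13 upstream of their starts. Of the 65, 35 were nearest to the start of the gene itself and 30 to the start of a neighbour. The median density was 0.858 summits per kb of window for the 10 genes and 0.917 for all genes. A summit within 500 bp of the gene's start was found at 5 of the 10 genes, namely cdc-48.1, ufd-1, ubxn-1, ubxn-2 and ubxn-3, a share near the 56.2% of all genes.

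**Figure D1:**
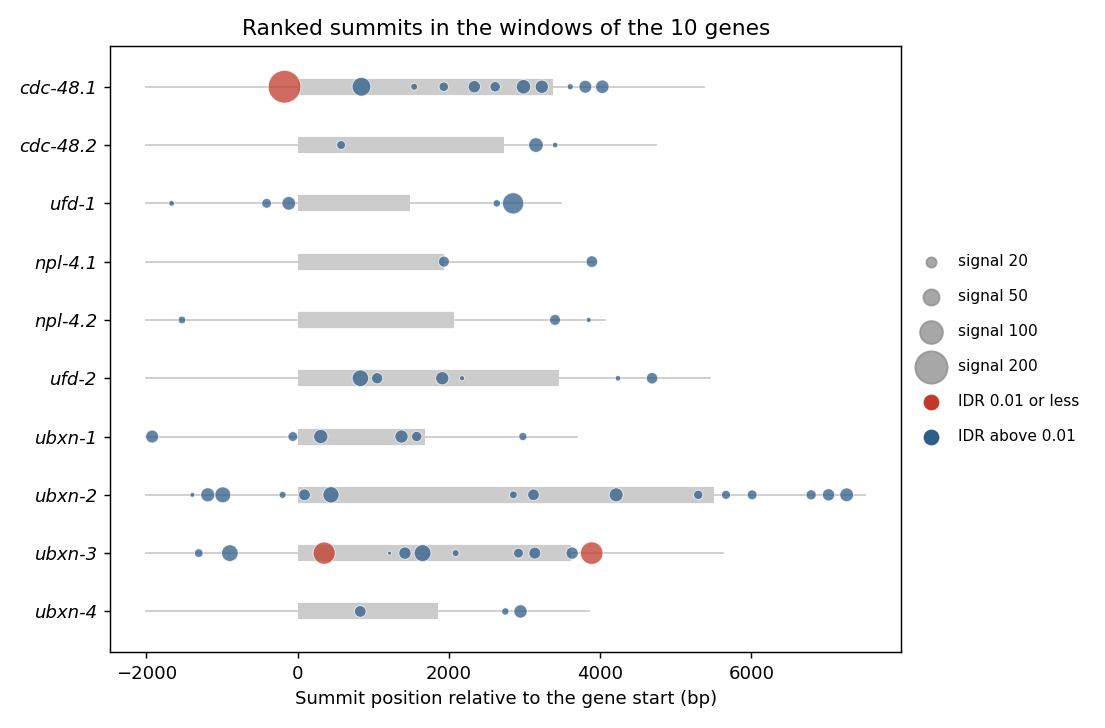
Ranked summits of the replicate-compared list in the windows of the 10 genes, by distance in bp from the gene's start. Grey bars are the genes, the area of a point grows with its signal and red marks an IDR of 0.01 or less, which is reached by 1 summit at cdc-48.1 and by a pair at ubxn-3.

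Ranked by the strongest signal in its window, the authors' measure of peak strength with no unit stated, cdc-48.1 was first at 204.2, followed by ubxn-3 at 96.8 and ufd-1 at 86.1. Then came ufd-2 at 52.3, ubxn-2 at 50.2, cdc-48.2 at 40.8, ubxn-1 at 39.1 and ubxn-4 at 33.7, with npl-4.1 at 25.6 and npl-4.2 at 22.6 last. These are values of the windows. At cdc-48.2, ufd-1, npl-4.1, npl-4.2, ubxn-3 and ubxn-4 the strongest summit was nearest to the start of another gene. The median over the 10 genes, 45.5, equalled that over all genes, 45.5, and 5 of the 10 lay above it. Only cdc-48.1, ubxn-3 and ufd-1 passed the signal that 90% of all genes stayed under, 68.9. The levels spread widely, since the 3 strongest had more signal than at least 97.7% of all genes, and the weakest, npl-4.2, more than 8.62%. Files used here give no read counts, so the depth behind these signals is unknown and no interval can be put on them.

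**Figure D2:**
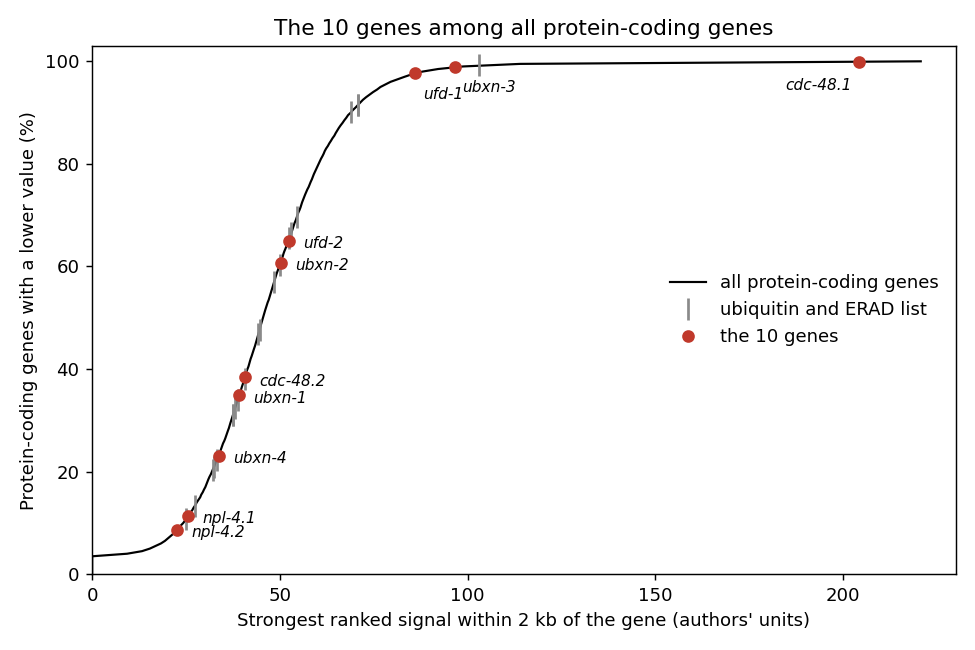
Strongest ranked signal in each gene's window (authors' units) against the percentage of protein-coding genes with a lower value. The curve is all genes, red points are the 10 genes and grey ticks the 21 genes of a ubiquitin and ER-associated degradation list, and cdc-48.1 stands at the far right at 204.2 while the other 9 genes spread from 22.6 to 96.8.

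The gene cdc-48.1 (WBGene00007352, assembly ce11, chromosome II, 10560036 to 10563407, minus strand) had its strongest summit 172 bp upstream of its start, at position 10563579, in sequence between genes. In the replicate-compared list the signal was 204.2, with an IDR of 8.20e-05 and a q-value of 0.0189, at place 3 of 87133 entries. The paired inputs behind that entry gave a signal of 133.8 in replicate 1 and 70.4 in replicate 2. Both replicates were high on their own scale, since the peak was at place 1 of the 49381 ranked entries of replicate 1 and at place 16 of the 36348 of replicate 2. The summit lay 155 bp upstream of the start in replicate 1's own list and 173 bp upstream in replicate 2's.

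The peak at cdc-48.1 passed the IDR threshold in 3 of the 4 lists. In replicate 1's own comparison its IDR was 0.00104, and in the pooled comparison 1.48e-04. In replicate 2's own comparison the IDR was 0.0843, although the q-value there was 0.0112, and the peak is missing from that replicate's thresholded list. The signal of replicate 1 was 1.90 times that of replicate 2, a ratio that 12 of the 214 merged peaks of the main list exceeded. Among those 214 peaks, 151 were higher in replicate 1 and the median log2 ratio was 0.22, against 0.93 at cdc-48.1. Ordered by replicate 1 the cdc-48.1 peak was first of the 214, and ordered by replicate 2 it was at place 15.

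Further summits at cdc-48.1 were far weaker. The next lay in a coding exon 845 bp after the start, with a signal of 67.5, replicate signals of 17.4 and 44.5, and an IDR of 0.267. The other 9 ranged from 7.03 to 40.1 and none had an IDR under the threshold. Of the 11 summits 7 lay inside the gene, 3 downstream and 1 upstream, and all 11 were nearest to the cdc-48.1 start. They came from 9 distinct intervals of replicate 1 and 7 of replicate 2, since entries of the ranked list can share a replicate's interval. A summit of signal 20.9 fell in the snoRNA gene C06A1.8, which lies in an intron of cdc-48.1.

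The other ATPase gene, cdc-48.2 (WBGene00008053, chromosome II, 8138496 to 8141230, plus strand), had 3 ranked summits and none within 500 bp of its start. The strongest, with a signal of 40.8, lay 418 bp past the end of the gene in an intron of ints-11, which encodes a subunit of the Integrator complex that processes small nuclear RNAs. Its signal was 32.2 in replicate 1 and 4.80 in replicate 2, with an IDR of 0.769, at place 15573 of 87133. Inside cdc-48.2 the replicate-compared list had 1 summit, in a coding exon 576 bp after the start, with a signal of 14.9 and replicate signals of 21.0 and 19.1. Neither of these replicate signals came from an interval in that replicate's own list. The remaining summit, of signal 5.78, was in a coding exon of ints-11. Replicate 1's own list had a summit of 3.81 inside the gene, in a coding exon 2464 bp after the start. In replicate 2's own list the window held a single summit, 25 bp upstream of the start, with a signal of 8.87.

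Side by side, the strongest summit in the window was 204.2 at cdc-48.1 and 40.8 at cdc-48.2, which placed the former above 99.96% of all genes and the latter above 38.5%. The density of ranked summits was 1.49 per kb at cdc-48.1 and 0.445 per kb at cdc-48.2. In replicate 1's own list the strongest values were 133.8 and 32.2, and in replicate 2's 70.4 and 8.87. At cdc-48.2 these were at different places, past the gene's end in replicate 1 and upstream of its start in replicate 2. The pooled ranked list carries the same intervals and signals for these summits, 204.2 and 40.8, so it is not a second measurement of them. It had 14 summits in the window of cdc-48.1 and 3 in that of cdc-48.2. Within each replicate cdc-48.1 had the higher value, but it was also above 99.985% of all genes in replicate 1 and 99.84% in replicate 2. The pair was chosen from the cdc-48.1 peak, so the difference is a description. The genes lay 2418.81 kb apart on chromosome II. Their coding sequences, of 2427 and 2430 bases, were identical at 75.4% of aligned bases, and the translated proteins of 809 and 810 codons, the stop codon left out, at 88.1% of 817 aligned positions. No stretch of 50 bases within either gene occurred elsewhere in the genome, a count that leaves out the flanks where the strongest summits lay.

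**Figure D3:**
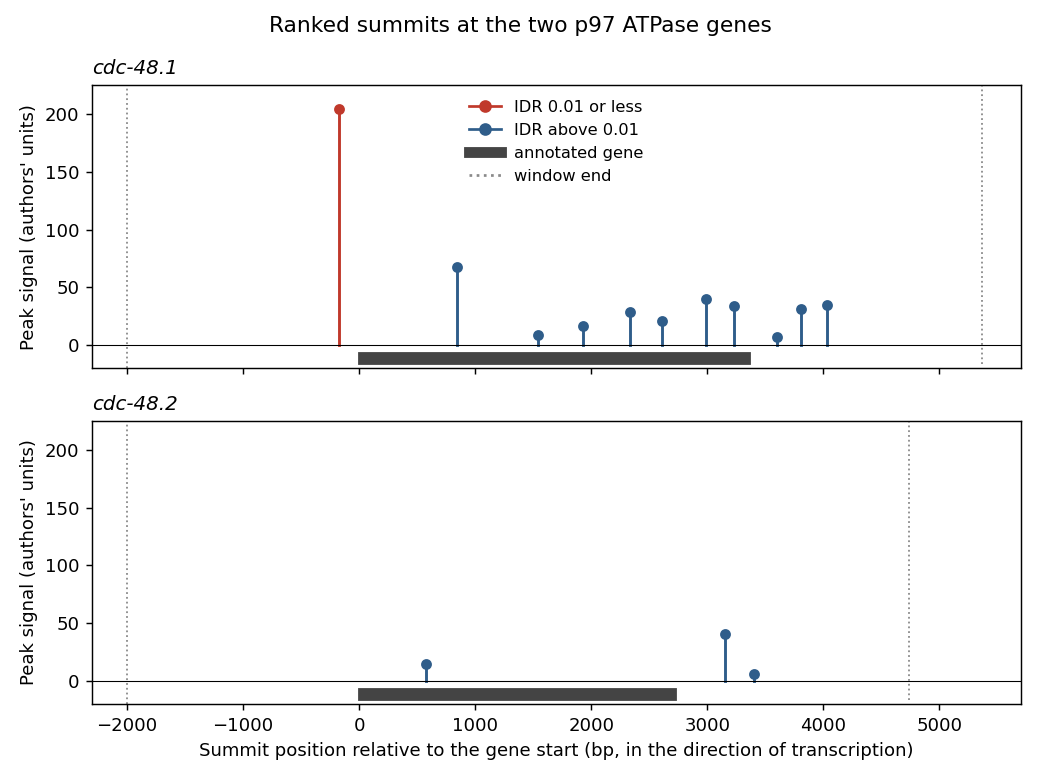
Ranked summits of the replicate-compared list at the ATPase genes, as signal (authors' units) against distance from the gene start in bp, on the same axes. At cdc-48.1 the red summit 172 bp upstream reaches 204.2 and 10 others lie at or below 67.5, and at cdc-48.2 the 3 summits lie at or below 40.8 with none near the start.

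The 300 bases before each ATPase gene, read on the coding strand from the RefSeq copy of the assembly, are shown because the summit lay in the one and no summit of the replicate-compared list lay in the other. They are chrII:10563408-10563707 on the minus strand and chrII:8138196-8138495 on the plus strand. Capitals mark the summit base of the cdc-48.1 peak and the 5 bases on each side.
cdc-48.1 upstream: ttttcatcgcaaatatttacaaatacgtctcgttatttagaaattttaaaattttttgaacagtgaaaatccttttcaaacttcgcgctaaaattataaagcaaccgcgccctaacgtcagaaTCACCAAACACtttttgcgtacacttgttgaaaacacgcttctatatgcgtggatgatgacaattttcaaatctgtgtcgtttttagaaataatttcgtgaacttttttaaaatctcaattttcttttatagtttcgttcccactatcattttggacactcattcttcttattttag
cdc-48.2 upstream: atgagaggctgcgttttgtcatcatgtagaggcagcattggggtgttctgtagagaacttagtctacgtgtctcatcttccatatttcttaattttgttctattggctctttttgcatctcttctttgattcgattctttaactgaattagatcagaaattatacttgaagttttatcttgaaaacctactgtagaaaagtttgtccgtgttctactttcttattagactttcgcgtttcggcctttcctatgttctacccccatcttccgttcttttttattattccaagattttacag

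These stretches had a GC content of 31% for cdc-48.1 and 36% for cdc-48.2, beside a median of 33.3% for the same stretch of all 19973 genes. A set of 4 short words was searched on both strands. The heat shock element pair GAANNTTC, the word CGCGCA and the E-box CACGTG were in neither stretch, and they occurred before 18.97%, 6.35% and 5.74% of all genes. Of the 10 genes, GAANNTTC occurred before 1, ubxn-1, CGCGCA before 1, ufd-2, and CACGTG before 2, ufd-1 and ufd-2. The word AGCGCG, which can overlap CGCGCA and was added after the summit sequences had been seen, occurred once before cdc-48.1, as its complement cgcgct in the run ttcgcgctaaa ahead of the capitals. It also occurred before ufd-1 and ubxn-2, so at 3 of the 10 genes, was not in the cdc-48.2 stretch and occurred before 5.06% of all genes. A match is a description of letters and names no factor.

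Of the substrate-recruiting cofactors, ufd-1 (chromosome IV, 12329408 to 12330890, minus strand) came closest to the threshold. Its strongest summit, with a signal of 86.1 and an IDR of 0.0312, lay 1368 bp past the end of the gene in a coding exon of the neighbour F19B6.3. The replicate signals were 57.5 and 27.1, so replicate 1 was the higher. At an IDR of 0.05, which 6.81% of all genes reached, 3 of the 10 genes were called, ufd-1 with cdc-48.1 and ubxn-3. Near the ufd-1 start the signals were lower, at 35.5 for a summit 116 bp upstream, within the 3′ UTR of F19B6.1, where the replicates gave 26.7 and 5.36. No summit of the replicate-compared list lay inside ufd-1, and replicate 2's own list had one of 13.98 in a coding exon 180 bp after the start.

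The genes npl-4.1 (chromosome II, 5631351 to 5633284, plus strand) and npl-4.2 (chromosome II, 5622889 to 5624959, plus strand) encode the partner of UFD-1 and lay 6392 bp apart. They had the weakest values. The strongest summit near npl-4.1 had a signal of 25.6 and lay 1958 bp past its end in an intron of F59E12.8, and the other, of 22.9, lay 2 bp past the end. That near npl-4.2 had 22.6 and lay 1334 bp past the end between genes, and the others, of 10.9 and 4.68, lay in a coding exon of eif-3.L, a translation initiation factor gene, and in a coding exon of F59E12.15. Neither gene had a ranked summit in the window in either replicate's own list, where 80.2% of all genes had one in replicate 1 and 73.4% in replicate 2. Of the 10 genes, 8 had one in replicate 1 and 7 in replicate 2, where ubxn-1 was the further gene without, and these shares lie near those of all genes. The replicate 1 interval behind the strongest npl-4.1 summit, of signal 18.9, is in that replicate's own list, but its own summit falls outside the window.

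The npl-4 genes also held most of the repeated sequence. Their coding sequences, both of 1587 bases, were identical at 99.5% of bases, and 82.6% of the 50-base words of npl-4.1 and 79.5% of those of npl-4.2 occurred elsewhere in the genome. For ubxn-2 the share was 11.2% and for the other 7 genes 0. A read that lies wholly within an exactly repeated stretch cannot be placed uniquely on its own. How the authors treated such reads is not given in the sources used here, so the values at the npl-4 genes are uncertain. The word counts cover the genes alone and leave out the flanks, where the ranked summits given for the npl-4 genes lay. In the replicate-compared list no summit lay inside npl-4.1, npl-4.2 or ufd-1, or 3 of the 10 genes, against 22.6% of all genes. The part of the repeats in the low values was not tested.

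The chain-lengthening ligase gene ufd-2 (chromosome II, 8062741 to 8066193, plus strand) had its strongest summit inside the gene, in a coding exon 831 bp after the start. The signal was 52.3 and the replicate signals were equal to within rounding, 29.8 in replicate 1 and 29.8 in replicate 2, with an IDR of 0.124. This was the closest match between replicates among the strongest summits of the 10 genes. The replicate 1 value, however, came from an interval that is not in that replicate's own list, so the match could not be checked there. In the same gene a summit 1913 bp after the start had 33.7, and downstream summits in pdha-1, a pyruvate dehydrogenase subunit gene, had 25.0 and 5.80. No summit of the replicate-compared list lay within 500 bp of the ufd-2 start, but other ranked lists held summits there. The pooled list had one of 43.1 at 308 bp upstream, its next strongest at this gene after the 52.3, and replicate 2's own list had one of 28.6 at 309 bp upstream and one of 17.6 at 50 bp upstream. Replicate 1's own list had none there.

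Among the UBX-domain genes, ubxn-3 (chromosome II, 217049 to 220667, minus strand), whose protein is the counterpart of mammalian FAF1 and acts with CDC-48 in taking the replication machinery off chromatin, had the only other summits in the main list. The stronger lay 271 bp past the end of the gene and 157 bp upstream of the start of its neighbour F48A11.4, so by the nearest start it belongs to that gene. Its signal was 96.8, with replicate signals of 55.8 and 42.2, an IDR of 0.00375 and a q-value of 0.304. The other lay in a coding exon 352 bp after the ubxn-3 start, with a signal of 94.1, replicate signals of 40.8 and 54.0, an IDR of 0.00835 and a q-value of 0.339. The replicates differed in order, replicate 1 being higher at the former and replicate 2 at the latter.

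The pair was at places 122 and 148 of the 238 main entries, below the middle of the list. In the pooled comparison the summit past the end passed, at place 114 of 162, and the summit in the coding exon had an IDR of 0.0874 and did not pass. Neither was in a thresholded list of a single replicate. Just inside the threshold stood the 0.00835 of the ubxn-3 coding exon, and just outside it the 0.0312 of ufd-1. A further summit in a ubxn-3 intron, 1653 bp after the start, had a signal of 54.4 and an IDR of 0.0935, and one 895 bp upstream had 52.8. In all, 11 ranked summits lay in the window, 7 of them inside the gene.

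The 101 bases around each of the ubxn-3 summits, on the gene's strand, are shown because they are the only other sequences of these genes under main-list summits. They are chrII:216728-216828 and chrII:220265-220365 on the minus strand, from the RefSeq copy of the assembly, with the 11 bases at each summit in capitals.
ubxn-3 summit: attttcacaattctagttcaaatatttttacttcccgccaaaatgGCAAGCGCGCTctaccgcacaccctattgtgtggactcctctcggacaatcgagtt
ubxn-3 second summit: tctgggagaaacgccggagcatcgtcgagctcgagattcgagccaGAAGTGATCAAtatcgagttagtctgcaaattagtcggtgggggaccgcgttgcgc

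The first of these sequences held AGCGCG 2 times within the capitals, once on each strand, and the second held none of the 4 words. The word was chosen after this sequence had been seen. In the same 101 bases around summits it was also present once at cdc-48.1 and at no other of the 10 strongest summits, and it occurred at 7.94% of the 214 main peaks and 1.43% of the 43349 merged ranked peaks. CGCGCA occurred at the strongest ubxn-2 summit, and at 8.88% of main and 1.72% of ranked peaks. CACGTG occurred at the strongest ubxn-4 summit, and at 3.27% of main and 2.19% of ranked peaks. GC content was 42.6% at the cdc-48.1 summit and 44.6% and 55.4% at the ubxn-3 summits, beside a median of 45.5% for main peaks and 38.6% for ranked peaks. At the strongest cdc-48.2 summit it was 27.7% and at that of ufd-1 50.5%.

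For the 3 other UBX-domain genes no summit had an IDR near the threshold. At ubxn-2 (chromosome IV, 2720313 to 2725819, minus strand), the counterpart of the p47 cofactor of membrane fusion, the window held 15 ranked summits, the most of the 10 genes. The strongest had a signal of 50.2 in an intron 442 bp after the start, with replicate signals of 11.0 and 27.5, and the next lay 988 bp upstream of the start, with replicate signals of 25.5 and 23.4. The others ranged from 4.49 to 37.7.

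At ubxn-1 (chromosome I, 2434002 to 2435691, plus strand), the counterpart of mammalian UBXN1, the strongest summit had a signal of 39.1 in a coding exon 307 bp after the start, with replicate signals of 20.8 and 18.03. A summit 62 bp upstream of the start had 18.2, and replicate 2's own list had no summit in the window. At ubxn-4 (chromosome III, 8403709 to 8405562, minus strand), the counterpart of a UBX protein of the mammalian endoplasmic reticulum membrane, the strongest summit lay 1095 bp past the end in a coding exon of cutc-1. It had a signal of 33.7 and replicate signals of 15.4 and 25.9. Inside ubxn-4 the replicate-compared list had 1 summit, 829 bp after the start, with a signal of 25.8 and 13.4 and 12.9 in the replicates. The pooled ranked list had others inside the gene, of 24.5 at 1661 bp and 8.05 at 1456 bp after the start.

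Across the strongest summits of the 10 genes, replicate 1 was higher at 6 and replicate 2 at 4, while 53.6% of all ranked entries were higher in replicate 1. The log2 ratio of replicate 1 to replicate 2 ran from -1.56 at npl-4.2 to 2.74 at cdc-48.2, beside a median of 0.10 over all entries. It was 0.93 at cdc-48.1, 1.08 at ufd-1, 0.40 at ubxn-3 and 0.20 at ubxn-1. It was 0.08 at npl-4.1, 0.00 at ufd-2, -0.75 at ubxn-4 and -1.32 at ubxn-2. The median signals of all entries were 15.04 in replicate 1 and 13.57 in replicate 2. Both replicates lay above them at cdc-48.1, ubxn-3, ufd-1, ufd-2, ubxn-1, npl-4.1 and ubxn-4. At cdc-48.2, ubxn-2 and npl-4.2 a replicate lay below its median. These summits were picked as the strongest of their windows, so nothing is read from a value above the median.

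The intervals behind both replicate values were found in the replicates' own lists for the strongest summits of cdc-48.1, ufd-1, ubxn-2 and ubxn-3. For the other 6 genes a replicate value came from an interval that is not in that replicate's own list, so it could not be checked there.

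**Figure D4:**
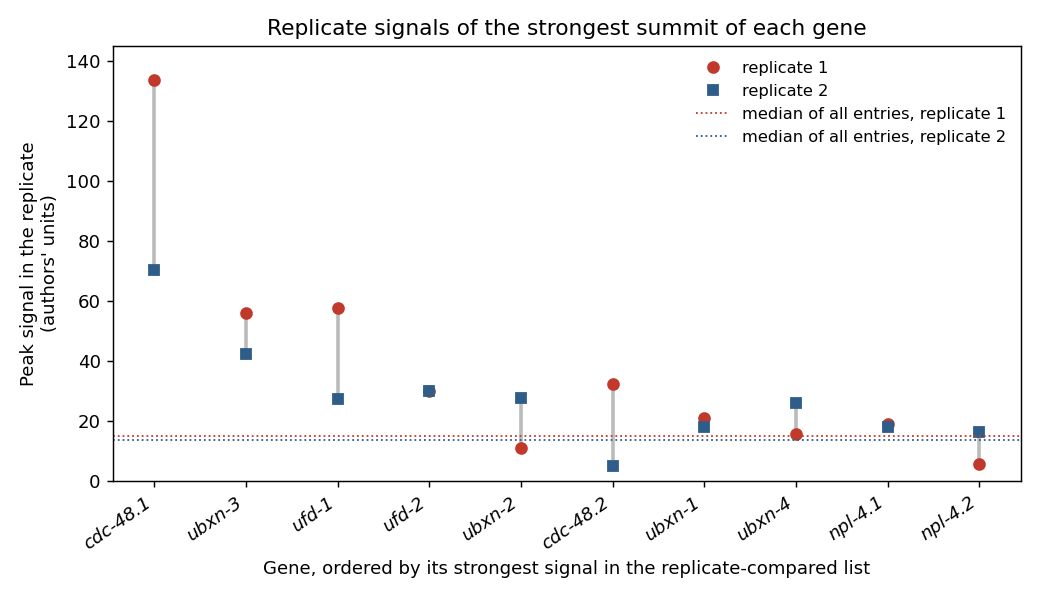
Signal of replicate 1 (circles) and replicate 2 (squares), in the authors' units, at the strongest summit of each gene, ordered by the signal of the replicate-compared list, with dotted lines at the medians of all entries, 15.04 and 13.57. The gene cdc-48.1 is highest in both replicates. The symbols at ufd-2 coincide at 29.8, where the replicate 1 value is from an interval not in that replicate's own list.

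Taken from each replicate's own ranked list, cdc-48.1 and ubxn-3 were among the 3 strongest of the 10 genes in both, and ufd-1 only in replicate 1. In replicate 1 the strongest values were 133.8 at cdc-48.1, 57.5 at ufd-1 and 55.8 at ubxn-3, each above at least 98.7% of all genes, whose median was 27.0. In replicate 2 they were 70.4 at cdc-48.1 and 54.0 at ubxn-3, above 99.8% and 99.4% of all genes, whose median was 21.7. The ubxn-3 values were from different summits, 247 bp past the gene's end in replicate 1 and 435 bp after its start in replicate 2. At ufd-1 replicate 2 gave 27.1, above 69.4% of all genes and below ufd-2 and ubxn-2. At cdc-48.2 replicate 1 gave 32.2, above 66.8% of all genes, and replicate 2 gave 8.87, above 27.6%. These too were apart, 418 bp past the end of the gene and 25 bp upstream of its start. Of the others, ufd-2 had 25.7 and 29.8, ubxn-2 had 27.1 and 27.5, and ubxn-4 had 13.4 and 25.9 in replicates 1 and 2. In replicate 1 ubxn-2 was the only one of the 3 above the median. The paired values of these 3 genes came from different places and do not compare a site. At ufd-2 they lay 2018 and 953 bp after the start, and at ubxn-2 4217 and 405 bp after it. At ubxn-4 they lay 855 bp after the start and 1168 bp past the end.

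Other genes of ubiquitin conjugation and ER-associated degradation were taken from a list of 21 that includes the HRD ligase genes sel-1 and sel-11, the derlin genes cup-2 and der-2, ubiquitin genes and the further UBX and AAA genes ubxn-5, ubxn-6 and cdc-48.3. In the main list 1 of the 21 was called, ubq-1, which encodes polyubiquitin, against 1.65% of all genes, and in the pooled list and each replicate's list none was. The ubq-1 summit lay in an intron 335 bp after the start, with a signal of 102.9, replicate signals of 56.9 and 42.6, an IDR of 0.00333 and a q-value of 0.220. The next strongest were ubq-2 at 70.9, ubc-7, an E2 enzyme gene, at 70.8 and ufd-3 at 69.0. The median of the 21 was 44.3, with a range of 25.0 to 102.9, and 9 lay above the median of all genes. A ranked summit within 500 bp of the start was found at 13 of the 21, against 56.2% of all genes.

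By their replicate signals, the 4 main-list peaks most like that of cdc-48.1 were sought as those at the smallest distance on the log2 scale over the 2 replicates. The nearest lay 1784 bp upstream of F20B6.9, at a distance of 0.24, with 120.2 in replicate 1 and 79.7 in replicate 2. The next was 172 bp upstream of the HSP70 family gene F44E5.5, at 0.33, with 118.9 and 85.5. Peaks 560 bp upstream of egg-5 and 253 bp upstream of R107.5 followed at 0.49 and 0.51. In each of the 4 the log2 ratio of the replicates was smaller than at cdc-48.1, between 0.25 and 0.59 against 0.93. The 4 were picked by these signals, and cdc-48.1 was first of the 214 in replicate 1, so nothing is read from this.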

How the data were processed

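ChIP-seq of tagged ZTF-1 in L2 larvae (2 replicates, 1 group) was read from 8 peak lists that the authors deposited on assembly ce11, per the labels. The signal of a peak and its −log10 q-value are the authors' deposited values, as are the −log10 IDR values of the ranked lists. No peak caller, aligner or annotation is named in the sources used here. An IDR of 0.01 or less separated the thresholded from the ranked entries in all 4 pairs of lists. The replicate columns of the replicate-compared ranked list were told apart by exact matches with the replicates' own lists, found for 53.9% (replicate 1) and 44.9% (replicate 2) of entries. Of the 65 entries in the gene windows 42 and 37 matched.

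Summits were placed on Ensembl release 115 gene models of the same assembly, with 1-based coordinates. Overlapping entries (1 bp or more) were merged for counts of peaks, keeping the highest signal. Sequences were read from the RefSeq copy of the assembly, and coding sequences were translated and aligned with Biopython 1.88 (BLOSUM 62, gap opening 11, extension 1). Scripts used Python 3.11.15 and were tested on simulated data. No depth is known, so no interval was given. The genes, the ubiquitin list and the words were chosen with earlier results of these data known. Named genes were the 10 genes, listed genes with a thresholded summit, the 4 peaks most like that of cdc-48.1 and the neighbours of gene summits; ubq-2, ubc-7 and ufd-3 were added after their values were seen.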

Additional observations from a re-analysis of the deposited data

How the results depend on the processing

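The count of 2 genes in the main list, cdc-48.1 and ubxn-3, was also 2 with windows of 500 bp, 1 kb or 5 kb, with any overlap of the peak interval, in the pooled list, and with only summits nearest to the gene's own start. It was 3 at an IDR of 0.05 and 1 at an IDR of 0.001, which leaves cdc-48.1. With a single replicate's list it was 0 to 1: 0 without replicate 1, and 1 without replicate 2. For the ubiquitin list the count was 1 at 1 kb and 5 kb, 0 in the pooled list, and 0 without either replicate. The strongest signal at cdc-48.1 was 204.2 in the replicate-compared and pooled lists, and 70.4 to 133.8 when a replicate was left out. At cdc-48.2 it was 40.8, and 8.87 to 32.2, where the 8.87 was at another place in the window. Over the 10 genes, 14 of 35 alternative signals moved, all 14 in lists of a single replicate, whose signals are on their own scale. Of the 21 that stayed, only cdc-48.2 without replicate 2, at 32.2, came from such a list, within the spread of the replicates. The rest came from unmerged entries or the pooled list. These carry the main signal for the same summits, so the 21 are no measure of stability. The pooled list held further summits in some windows, but none was the strongest of its window. In the lists of a single replicate npl-4.1 and npl-4.2 have no summit in the window in either replicate, and ubxn-1 has none in replicate 2. For npl-4.1 replicate 1's own list does hold an interval of 18.9, with its summit outside the window. No paired analysis was possible because there was 1 group. Unknown depth limits every value, above and below the threshold. Entries below it are candidate regions with high q-values, and the main list itself had a median q-value of 0.304. Repeated sequence is a further limit at the npl-4 genes.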
